A study of Rattus norvegicus with 42 samples.

Results

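Axon guidance ligands and receptors were examined in the hippocampus of rat pups after an early exposure to an anti-seizure medication. The genes were chosen by symbol, with earlier results of these data known. They were the semaphorins, plexins, neuropilins, ephrins, Eph receptors, Slits, Robo receptors, netrins and the netrin receptors Dcc and Unc5a to Unc5d. This choice gave 66 transcripts of 63 genes among 15516 transcripts in the count table. Of these, 62 passed a filter on low counts, which 13062 transcripts passed in all. The 4 that did not pass were Ntn5 (raw counts from 0 to 9 per animal), Epha1 (0 to 7) and both listed entries of Robo4 (0 to 17 and 0 to 10), and they were not tested.

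Male Sprague Dawley pups received 1 intraperitoneal injection on postnatal day 7 (P7), of saline in the vehicle group (VEH), of phenobarbital at 75 mg/kg in the PB group, or of levetiracetam at 200 mg/kg in the LEV group, and were then returned to the dam. Hippocampi were taken 72 h later, on P10, from pups killed with pentobarbital and perfused with cold saline buffer, and 1 RNA library was made per animal. The analysis held 13 VEH, 14 PB and 14 LEV animals, since 1 VEH animal was left out as its label directs. Treatments were balanced within litter, with 1 animal per litter in each group, and the animals came in separate orders. The sample codes had 2 letters for animals 1 to 6 and 1 letter for animals 7 to 14 of each group, and these series (the two-letter and one-letter series) entered the model as a batch term. Whether they are the orders of animals is not given in the sources used here.

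The families named above are cues and receptors that steer growing axons and dendrites. Semaphorins signal through plexins, with neuropilins as coreceptors for most secreted semaphorins. Ephrins bind Eph receptors on a neighbouring cell, Slits bind Robo receptors, and netrins attract through Dcc and repel through the Unc5 receptors. In the hippocampus around birth and in the first postnatal weeks these genes take part in the layering of afferents, in mossy fibre targeting and in the forming and pruning of synapses, and several are also used by glia.

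Levels are given as normalised counts, that is, estimated counts scaled to the mean library after TMM normalisation. They depend on transcript length, so they were compared between groups and not between genes. A transcript was called where the edgeR quasi-likelihood test gave a Benjamini-Hochberg adjusted p under 0.05 over all tested transcripts and a fold past the study's limit, which is a log2 fold change of 0.32 in either direction. Total counts per animal ranged from 9499494 to 14488125, and the group medians were 11712462 (VEH), 11103912 (PB) and 11338316 (LEV). In whole tissue, fewer cells of a type and less RNA per cell cannot be told apart.

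Plxnb3, which encodes plexin-B3, was the 1 member called after PB. Plexin-B3 is a receptor for Sema5a and is known in the brain chiefly from cells of the oligodendrocyte lineage. The gene lies at chrX:157015297-157028435 in the rn6 build of the count table. The normalised count of Plxnb3 ran from 236 over a median of 316 to 515 in VEH animals, from 265 over 487 to 598 in PB animals, and from 284 over 387 to 511 in LEV animals. The ranges overlapped, through 1 high VEH animal (animal 3, 515) and 1 low PB animal (animal 2, 265). Of the other 12 VEH animals none exceeded 365, and of the other 13 PB animals none was below 379. The mean was 321 ± 68.1 (SD, n = 13) in VEH, 472 ± 85.9 (SD, n = 14) in PB and 394 ± 64.9 (SD, n = 14) in LEV.

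**Figure D1:**
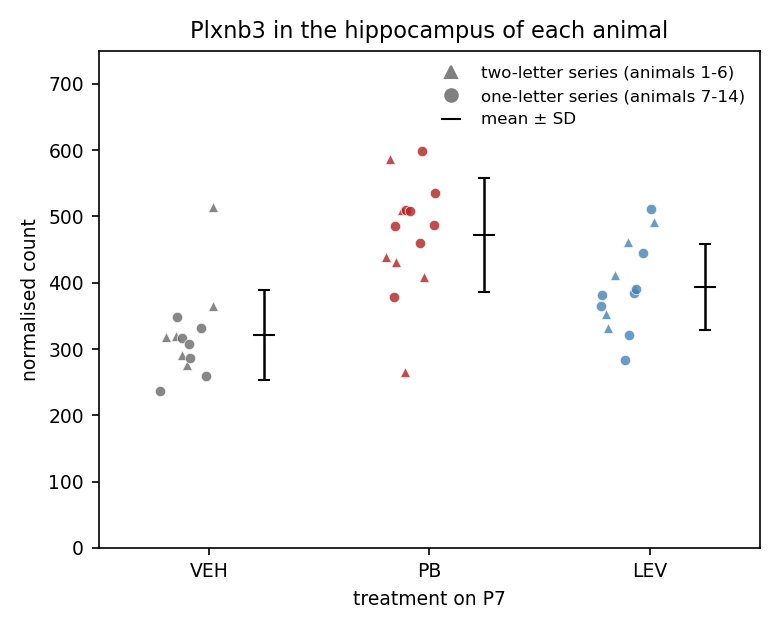
Normalised count of Plxnb3 in each animal (y axis) by treatment on P7 (x axis). Triangles are animals of the two-letter series and circles of the one-letter series, and bars give the mean and SD. Apart from PB animal 2 at 265, all PB animals lie at 379 or higher, and apart from VEH animal 3 at 515, all VEH animals lie at 365 or lower.

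Plxnb3 was 1.47-fold higher after PB than after VEH, a log2 fold change of 0.56 (SE 0.10, 95% CI 0.36 to 0.76, adjusted p = 0.000898, edgeR quasi-likelihood test). Of 14 PB animals, 13 lay above the mean of the VEH animals in the same series. Plxnb3 was thus 1 of 62 members called (1.61%), beside 0.605% of all tested transcripts called in this comparison. By adjusted p without the fold limit it was again the 1 member, beside 5.39% of all transcripts. The call held in all 41 fits that each left out 1 animal, with log2 fold changes from 0.52 (without VEH animal 11) to 0.63 (without VEH animal 3).

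After LEV, Plxnb3 had the smallest unadjusted p of the members and did not pass the adjusted test. Its log2 fold change was 0.30 (SE 0.10, 95% CI 0.10 to 0.50, unadjusted p = 0.00465, adjusted p = 0.62), with 12 of 14 LEV animals above the mean of the VEH animals in the same series. The difference between the drugs did not pass either, at a log2 value of 0.26 for PB against LEV (SE 0.10, unadjusted p = 0.0109, adjusted p = 0.114). The 2 drug comparisons share the VEH animals.

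Plxnb3 was higher after PB in both series, with unequal size. In the two-letter series its mean was 347 ± 87.8 (SD, n = 6) in VEH and 440 ± 108 (SD, n = 6) in PB, a log2 fold change of 0.34 (SE 0.14). In the one-letter series the mean was 298 ± 39.7 (SD, n = 7) in VEH and 495 ± 62.4 (SD, n = 8) in PB, with no overlap of the ranges (236 to 348 against 379 to 598) and a log2 fold change of 0.73 (SE 0.13). The test of the difference between the series gave an unadjusted p of 0.053 and an adjusted p of 0.456. When the two-letter series was fitted alone, the change of 0.34 did not pass (adjusted p = 0.406).

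The other plexins of class B gave smaller differences. Plxnb2, a receptor for Sema4c and Sema4g, ran from 1230 over 1388 to 1629 in VEH, from 1305 over 1547 to 1924 in PB and from 1085 over 1347 to 1868 in LEV. These ranges overlapped widely, and the log2 fold change of PB against VEH was 0.16 (SE 0.06, unadjusted p = 0.00991, adjusted p = 0.104, edgeR). Plxnb1, the receptor for Sema4d, had a log2 fold change of -0.01 (SE 0.05) after PB. The sequences around the starts of these 3 genes are shown as a description, and their changes after PB were not tested against each other. The windows hold 250 bases before and 50 bases after the start, from RefSeq on the GRCr8 build. The table held 50 windows for 49 of the 63 member genes, 2 of them for Robo1. CpG dinucleotides are in capitals, and the windows are chrX:156646624-156646923 (plus strand), chr7:122137899-122138198 (minus strand) and chr8:118622911-118623210 (plus strand).
Plxnb3: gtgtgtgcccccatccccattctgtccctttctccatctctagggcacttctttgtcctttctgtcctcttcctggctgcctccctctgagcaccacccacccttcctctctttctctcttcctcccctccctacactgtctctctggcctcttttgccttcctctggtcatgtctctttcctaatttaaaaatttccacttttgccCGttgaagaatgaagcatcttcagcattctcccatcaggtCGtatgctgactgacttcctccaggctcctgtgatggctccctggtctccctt
Plxnb2: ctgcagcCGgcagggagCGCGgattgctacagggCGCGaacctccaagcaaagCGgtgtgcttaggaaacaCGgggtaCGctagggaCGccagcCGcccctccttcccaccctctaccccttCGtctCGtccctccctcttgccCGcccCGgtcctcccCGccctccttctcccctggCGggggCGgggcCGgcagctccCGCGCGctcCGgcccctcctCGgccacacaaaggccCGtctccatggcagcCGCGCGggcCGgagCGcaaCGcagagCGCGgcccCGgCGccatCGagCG
Plxnb1: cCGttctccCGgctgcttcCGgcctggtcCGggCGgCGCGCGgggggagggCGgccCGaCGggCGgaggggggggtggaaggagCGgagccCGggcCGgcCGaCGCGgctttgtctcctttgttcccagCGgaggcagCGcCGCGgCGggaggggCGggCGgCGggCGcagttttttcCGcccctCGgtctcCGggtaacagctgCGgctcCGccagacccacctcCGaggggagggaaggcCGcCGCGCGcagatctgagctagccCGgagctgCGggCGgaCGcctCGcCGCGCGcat

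The Plxnb3 window held 2 CpG, against 36 in Plxnb2 and 45 in Plxnb1. The median was 18 over the 50 member windows and 7 over all 33469 windows. The Sema6c window also held 2 CpG, and 1 member window (Sema3c, 1 CpG) held fewer. Of all windows, 13.6% held fewer CpG than that of Plxnb3. The letters GGGCGG, searched on both strands, were found 4 times in Plxnb2, 7 times in Plxnb1 and not in Plxnb3, and 33.1% of all windows held them. The letters ACAAAG, searched on both strands, were found once in Plxnb3, once in Plxnb2 and 2 times in Plxnb1, and 18.8% of all windows held them. TATAAA was in none of the member windows and in 14.2% of all windows. These matches describe the letters in the windows only, and their part in the counts was not tested.

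The change of the members as a whole after PB was small. Their median log2 fold change was 0.02, beside 0 over all tested transcripts. Of the 62 members 36 lay above 0, beside 6785 of all 13062 tested transcripts. Their median absolute value was 0.06, beside 0.07. At an unadjusted p under 0.05, 12 members were higher after PB (19.4%), beside 9.79% of all transcripts, and 3 were lower (4.84%), beside 10.4%. Leaving out 1 animal gave 10 (without PB animal 14) to 14 (without VEH animal 8) higher and 2 (without VEH animal 10) to 5 (without VEH animal 9) lower. The two-letter series fitted alone gave 5 in each direction, and the one-letter series alone gave 12 higher and 2 lower. For these alternative fits the shares of all transcripts are not given here. The 15 transcripts of the fit of both series include Plxnb3, and the other 14 did not pass the adjusted test.

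**Figure D2:**
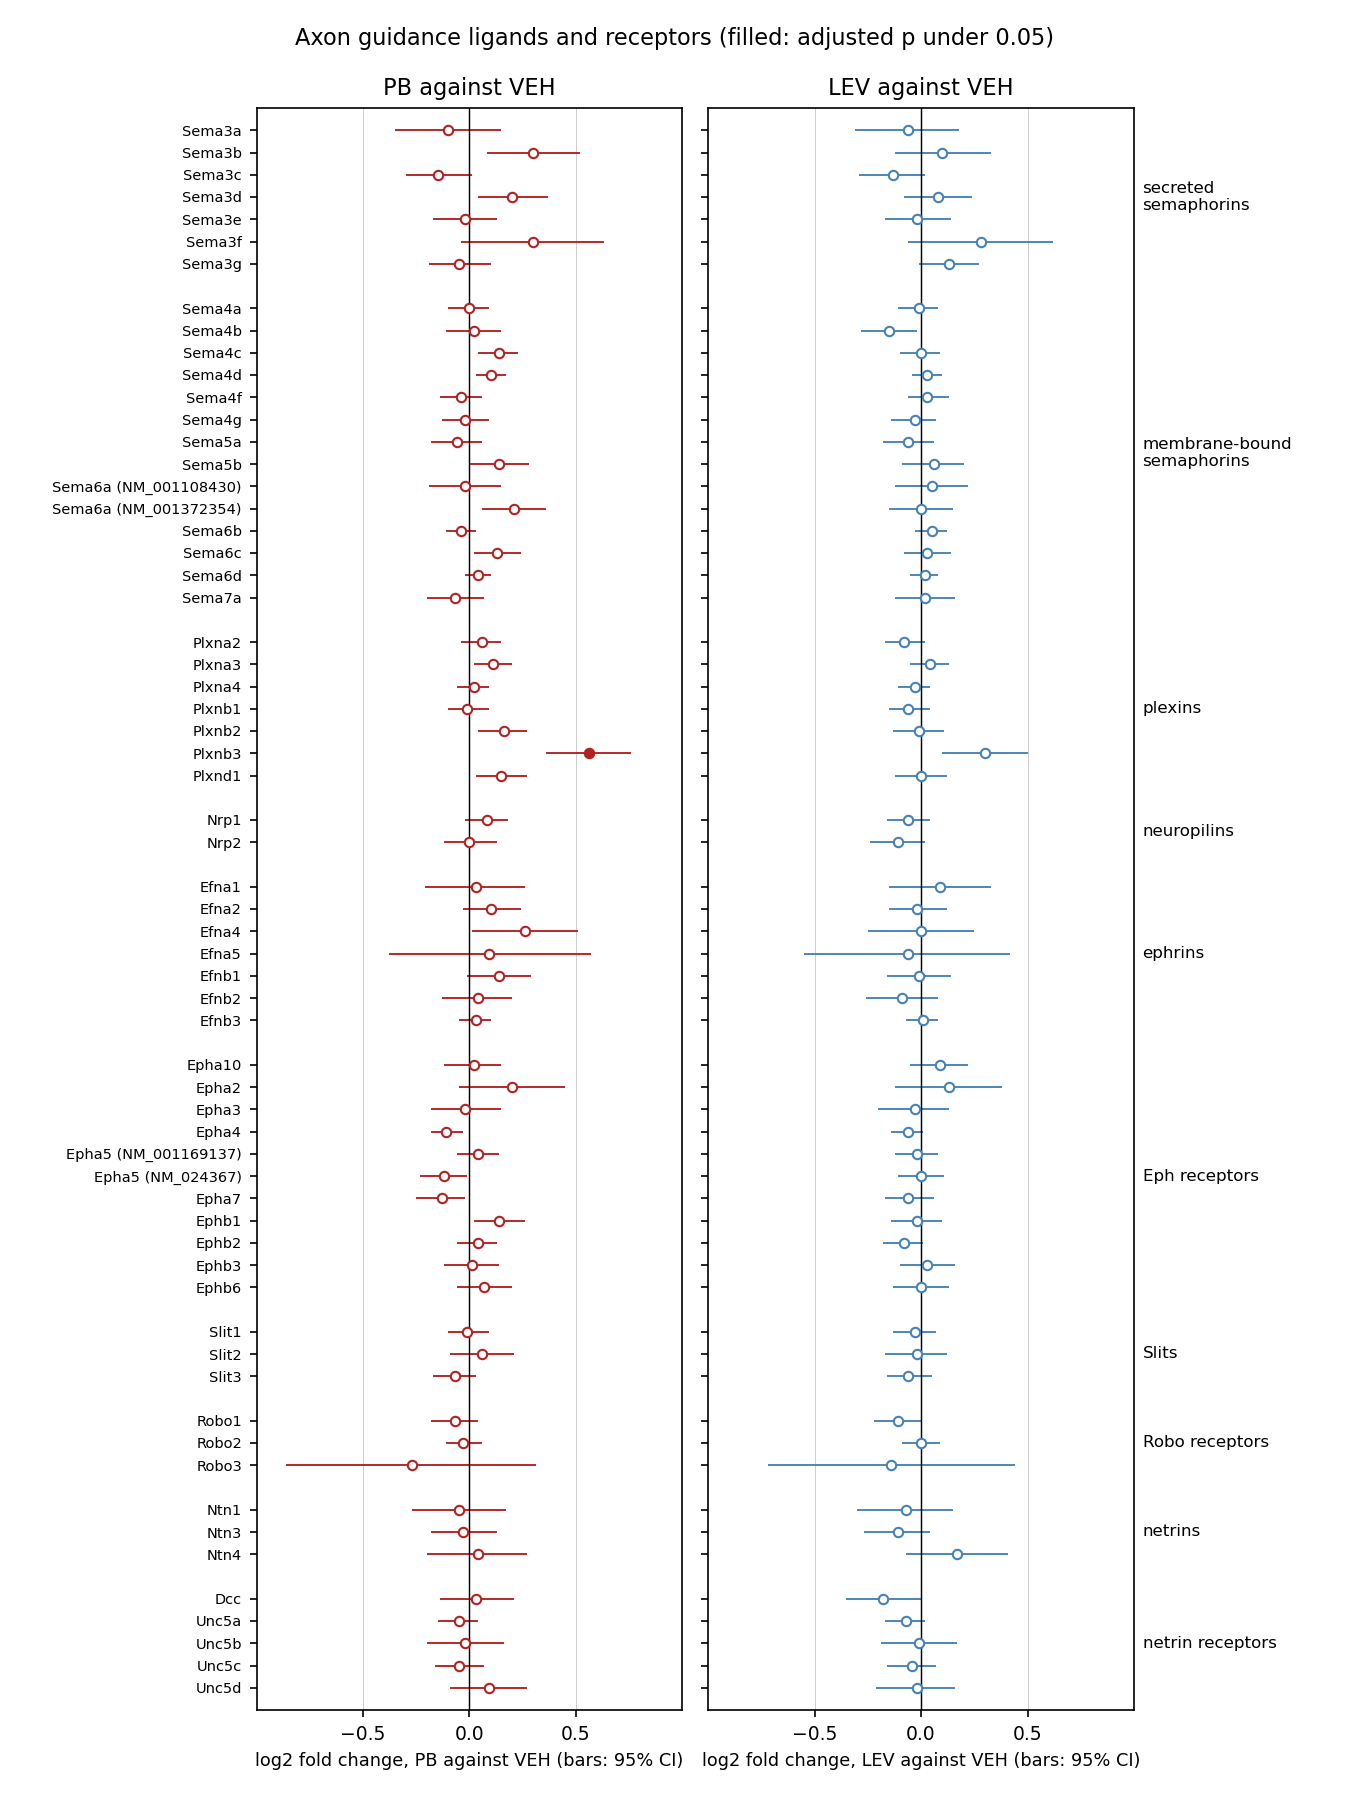
Log2 fold change (x axis) of the 62 tested members after PB (left) and LEV (right) against VEH, grouped by family, with 95% confidence intervals as bars. The filled point is Plxnb3 after PB at 0.56, the 1 member with an adjusted p under 0.05. All 7 ephrins and 6 of 7 plexins lie above 0 after PB, beside 6785 of all 13062 tested transcripts. Within neither series alone do all 7 ephrins lie above 0.

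Among the secreted semaphorins, which act mainly through neuropilins and class A plexins, 7 were tested and the median log2 fold change after PB was -0.02. Sema3b, a ligand that binds neuropilins, ran from 46.1 over 74.2 to 112 in VEH and from 78.0 over 91.2 to 112 in PB. The lowest PB animal was above the VEH median, and the highest values of both groups were equal. The log2 fold change was 0.30 (SE 0.11, unadjusted p = 0.0084, adjusted p = 0.0944), with 13 of 14 PB animals above the mean of the VEH animals in the same series. Sema3d had a log2 fold change of 0.20 (SE 0.08, adjusted p = 0.127). Sema3c, another secreted semaphorin, was at 3020 ± 589 (SD, n = 13) in VEH and 2726 in PB, a log2 fold change of -0.15 (adjusted p = 0.275).

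Of the membrane-bound semaphorins, 14 transcripts were tested, with a median of 0.01 and 7 on either side of 0. Sema4c, a ligand of plexin-B2, ran from 381 over 422 to 492 in VEH, from 392 over 475 to 567 in PB and from 383 over 423 to 499 in LEV. The groups overlapped, with the upper end of the PB animals above both others. Its log2 fold change after PB was 0.14 (SE 0.05, unadjusted p = 0.00498, adjusted p = 0.0704), and 12 of 14 PB animals lay above the mean of the VEH animals in the same series. Sema4d, the ligand of plexin-B1, ran from 633 over 722 to 802 in VEH and from 710 over 783 to 842 in PB. The lowest PB animal was above the lowest VEH animals, and the log2 fold change was 0.10 (SE 0.03, unadjusted p = 0.00505, adjusted p = 0.0708), with 13 of 14 PB animals above.

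Sema6a, a ligand of plexin-A2 and plexin-A4, was listed as 2 transcripts with the same coordinates. Transcript NM_001372354 ran from 551 over 740 to 897 in VEH and from 725 over 838 to 1013 in PB, a log2 fold change of 0.21 (SE 0.07, adjusted p = 0.0805). Transcript NM_001108430 was at -0.02 (SE 0.09, adjusted p = 0.922). The counting algorithm divides reads that both transcripts share, so the split between them is uncertain. Sema6b had a VEH mean of 2513 ± 236 (SD, n = 13) and a log2 fold change of -0.04 after PB. Sema5a, the ligand of plexin-B3, was at -0.06 (SE 0.06, adjusted p = 0.637) after PB and at -0.06 (adjusted p = 0.949) after LEV.

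**Figure D3:**
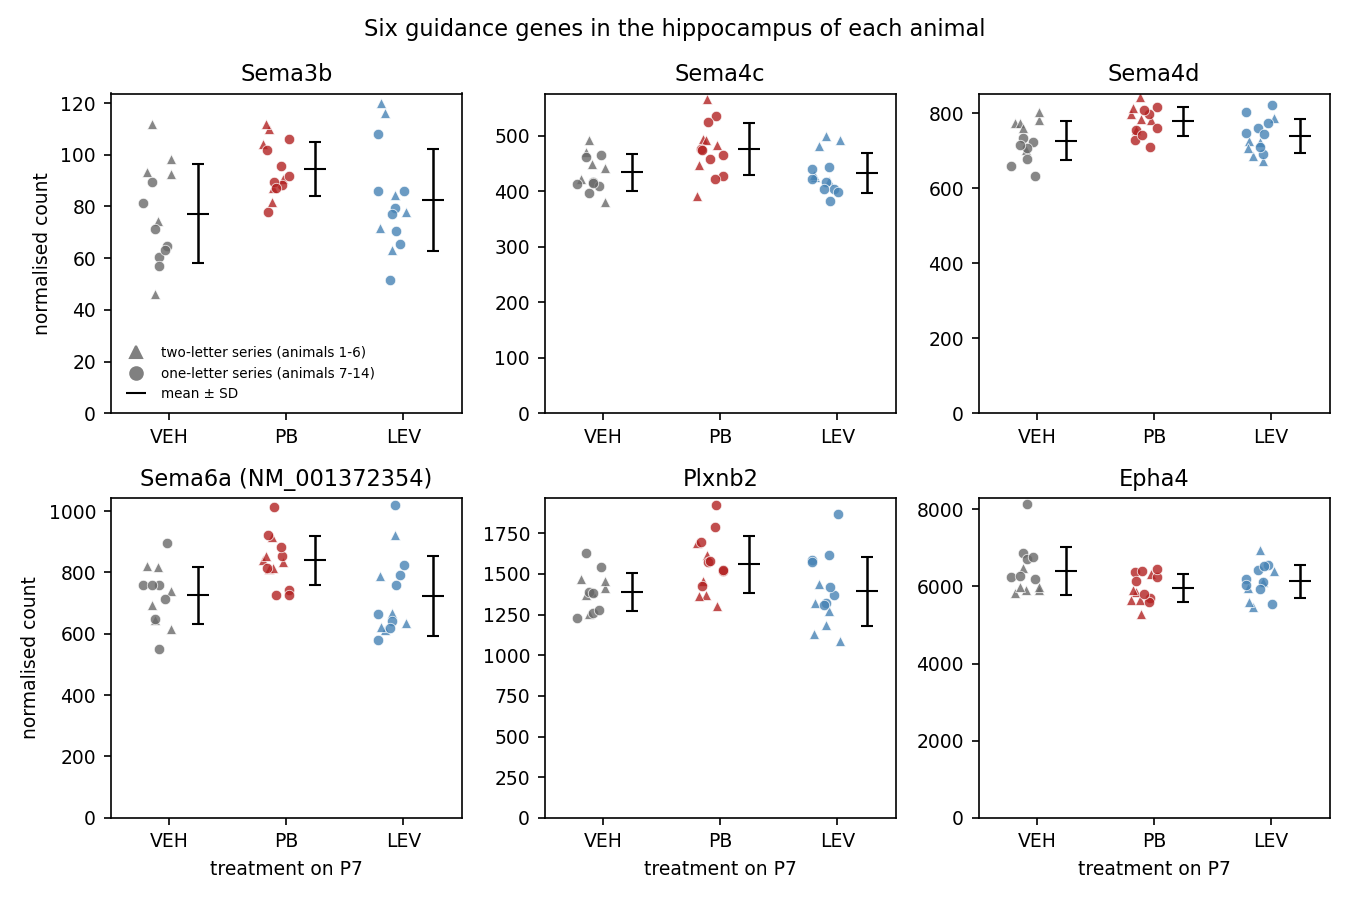
Normalised count (y axis) of Sema3b, Sema4c, Sema4d, Sema6a (NM_001372354), Plxnb2 and Epha4 in each animal by treatment, with mean and SD as bars, and with triangles for the two-letter and circles for the one-letter series. The groups overlap in every panel, and none of these 6 passed the adjusted test.

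Of the plexins, 7 were tested and 6 lay above 0 after PB, with a median of 0.11. Besides Plxnb3 and Plxnb2, an unadjusted p under 0.05 was reached by Plxna3, a receptor for secreted semaphorins, at 0.11 (SE 0.04, adjusted p = 0.122), and by Plxnd1, the receptor for Sema3e, at 0.15 (SE 0.06, adjusted p = 0.128). Plxnd1 was at -0.01 in the two-letter and 0.28 in the one-letter series. Plxna4, with a VEH mean of 4512 ± 303 (SD, n = 13), was at 0.02 (SE 0.04). The neuropilins Nrp1 and Nrp2 were at 0.08 and 0.00.

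All 7 tested ephrins lay above 0 after PB in the fit of both series, with a median of 0.09 and values from 0.03 to 0.26, also under RLE, upper-quartile and no scaling, a check chosen after seeing the data. Within neither series did all 7 lie above 0, as Efnb2 was at -0.07 in the two-letter series, and Efna1 and Efna5 were at -0.21 and -0.22 in the one-letter series. One of them, Efna4, a membrane-anchored ephrin of class A, had an unadjusted p under 0.05 (log2 fold change 0.26, SE 0.12, adjusted p = 0.217), at a VEH mean of 36.5 ± 7.76 (SD, n = 13). Efna4 had a log2 fold change of 0.46 in the two-letter and 0.10 in the one-letter series. Efnb3, a transmembrane ephrin with a VEH mean of 5172 ± 535 (SD, n = 13), was at 0.03 (SE 0.04).

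The Eph receptors held all 3 members that were lower at an unadjusted p under 0.05. Epha4, which binds ephrins of both classes and is abundant on hippocampal neurons, ran from 5836 over 6244 to 8149 in VEH, from 5281 over 5875 to 6454 in PB and from 5472 over 6118 to 6934 in LEV. Of 14 PB animals, 6 lay below the lowest VEH animal, and 1 was above the mean of the VEH animals in the same series. The log2 fold change after PB was -0.11 (SE 0.04, unadjusted p = 0.00882, adjusted p = 0.0967). Epha7 was at -0.13 (adjusted p = 0.174). Of the 2 listed transcripts of Epha5, NM_024367 was at -0.12 (adjusted p = 0.199) and NM_001169137 at 0.04 (adjusted p = 0.679), with the same uncertainty of the split. Ephb1, a receptor for class B ephrins, was at 0.14 (adjusted p = 0.173) in the other direction.

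Of the Slit, Robo and netrin families and the netrin receptors, no member had an unadjusted p under 0.05 after PB in the fit of both series. Robo1, a receptor for Slits, was at -0.07 (SE 0.06) in that fit, at -0.24 in the two-letter series and at 0.08 in the one-letter series (unadjusted p of the difference 0.00211, adjusted p = 0.187, edgeR). Slit3 was at -0.17 and 0.02 in the same order. Slit1, at 1058 ± 111 (SD, n = 13) in VEH, was at -0.01 (SE 0.05), and the 3 Slits lay between -0.07 and 0.06. Robo2, at 2271 ± 223 (SD, n = 13) in VEH, was at -0.03 (SE 0.04). Robo3 had a log2 fold change of -0.27 with an SE of 0.29, at VEH counts from 72.0 to 627. The 3 tested netrins lay between -0.05 and 0.04, with Ntn3 at -0.03, and the 5 netrin receptors between -0.05 and 0.09, with Unc5a at -0.05. The intervals at these values were narrow for Slit1 (95% CI -0.10 to 0.09) and wide for Ntn1 (-0.27 to 0.17).

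After LEV, 0 of 62 members were called by adjusted p and fold (0% of all transcripts were), and 0 by adjusted p alone, beside 0.00766% of all transcripts. DESeq2 also called 0 members. At an unadjusted p under 0.05, edgeR gave 1 member higher (Plxnb3, 1.61%), beside 2.96% of all transcripts, and 1 lower (Sema4b, 1.61%), beside 2.89%. Leaving out 1 animal gave 1 to 2 higher (2 without VEH animal 9) and 0 (without LEV animal 6) to 6 (without VEH animal 9) lower. For these fits the shares of all transcripts are not given here. The median log2 fold change of the members was -0.02, beside 0, and 41 of 62 lay below 0, beside 6507 of all 13062 tested transcripts. After Plxnb3, the smallest p values were those of Sema4b (-0.15, adjusted p = 0.806), Dcc (-0.18, adjusted p = 0.844), Robo1 (-0.11, adjusted p = 0.844) and Sema3g (0.13, adjusted p = 0.85). Sema4b is a membrane-bound and Sema3g a secreted semaphorin.

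In the direct comparison of PB with LEV, 0 of 62 members were called by adjusted p and fold, beside 0.582% of all transcripts, and 0 by adjusted p alone, beside 4.45%. DESeq2 called 4 members by adjusted p alone, namely Sema4c, Sema6a (1 listed transcript), Plxnb2 and Plxna2, and 0 with the fold limit. The share of all transcripts that DESeq2 called is not given here, and the 4.45% is from edgeR. At an unadjusted p under 0.05 in edgeR, 14 members were higher after PB than after LEV (22.6%), beside 9.45% of all transcripts, and 3 were lower (4.84%), beside 10.2%. Leaving out 1 animal gave 12 (without LEV animal 5) to 16 (without PB animal 5) higher and 1 (without PB animal 5) to 4 (without LEV animal 8) lower. With the mature oligodendrocyte level in the model, 4 were higher and 3 lower. The shares of all transcripts in this fit and in the fits without 1 animal are not given here. A fall in these counts is therefore not shown to be particular to the members. The mature oligodendrocyte list was itself lower after PB than after LEV, with a median log2 value of -0.31, 18 of 19 transcripts below 0 and 3 lower by adjusted p. The smallest p values were those of Sema4c (log2 value 0.14, adjusted p = 0.0675), Sema6a transcript NM_001372354 (0.21, adjusted p = 0.0764), Plxnb2 (0.17, adjusted p = 0.0812), Plxna2 (0.13, adjusted p = 0.0816) and Nrp1 (0.14, adjusted p = 0.0954). Nrp1 is the coreceptor of Sema3a, and Plxna2 is a receptor for Sema6a.

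The direction of the members within the 2 series was compared next, since the model took the series as a batch. The edgeR F test of treatment by series called 0 of 62 members by adjusted p, beside 0.505% of all transcripts, and 14 (22.6%) had an unadjusted p under 0.05, beside 12.1%. For PB alone the test of the difference between the series called 0 members, beside 0.0689% of all transcripts, and 11 (17.7%) had an unadjusted p under 0.05, beside 11.1%. For LEV alone it called 2, Plxnb1 and Ntn1 (3.23%), beside 0.842% of all transcripts. The series themselves differed in 15 members (24.2%) by adjusted p, beside 30.2% of all transcripts. Plxnb3 was not among these (log2 difference -0.04, one-letter minus two-letter, adjusted p = 0.791).

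Plxnb1 ran from 1849 over 2008 to 2142 in VEH and from 1530 over 1669 to 1831 in LEV animals of the two-letter series. In the one-letter series it ran from 1706 over 1977 to 2070 in VEH and from 1825 over 2016 to 2253 in LEV. The groups did not overlap in the first series and overlapped in the second. The log2 fold changes were -0.25 (SE 0.06) and 0.10 (SE 0.05), and their difference had an adjusted p of 0.0149 (edgeR).

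Ntn1, which attracts axons through Dcc, ran from 82.9 over 92.8 to 98.9 in VEH and from 47.8 over 58.4 to 86.3 in LEV animals of the two-letter series. In the one-letter series it ran from 57.5 over 75.1 to 98.2 in VEH and from 70.8 over 91.3 to 120 in LEV. The ranges overlapped in both series, with LEV animals mostly lower in the first and mostly higher in the second. The log2 fold changes were -0.51 (SE 0.14) and 0.28 (SE 0.13), and their difference had an adjusted p of 0.0289.

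Dcc, the netrin receptor for attraction, had log2 fold changes after LEV of -0.41 in the two-letter and 0.01 in the one-letter series (adjusted p of the difference 0.256). Its LEV counts of 338 to 439 in the two-letter series lay below all VEH counts of 503 to 589. Robo1, the receptor for Slits, was at -0.30 and 0.06 (adjusted p of the difference 0.0532), with LEV counts of 983 to 1212 below the VEH counts of 1329 to 1482 in the two-letter series. At an unadjusted p under 0.05 in the fit with both series, 12 members were lower after LEV in the two-letter series (19.4%), beside 7.68% of all transcripts, and 3 were higher (4.84%), beside 4.85%. In the one-letter series 1 was lower (Epha4, 1.61%), beside 2.69%, and 4 were higher (6.45%), beside 3.45%.

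**Figure D4:**
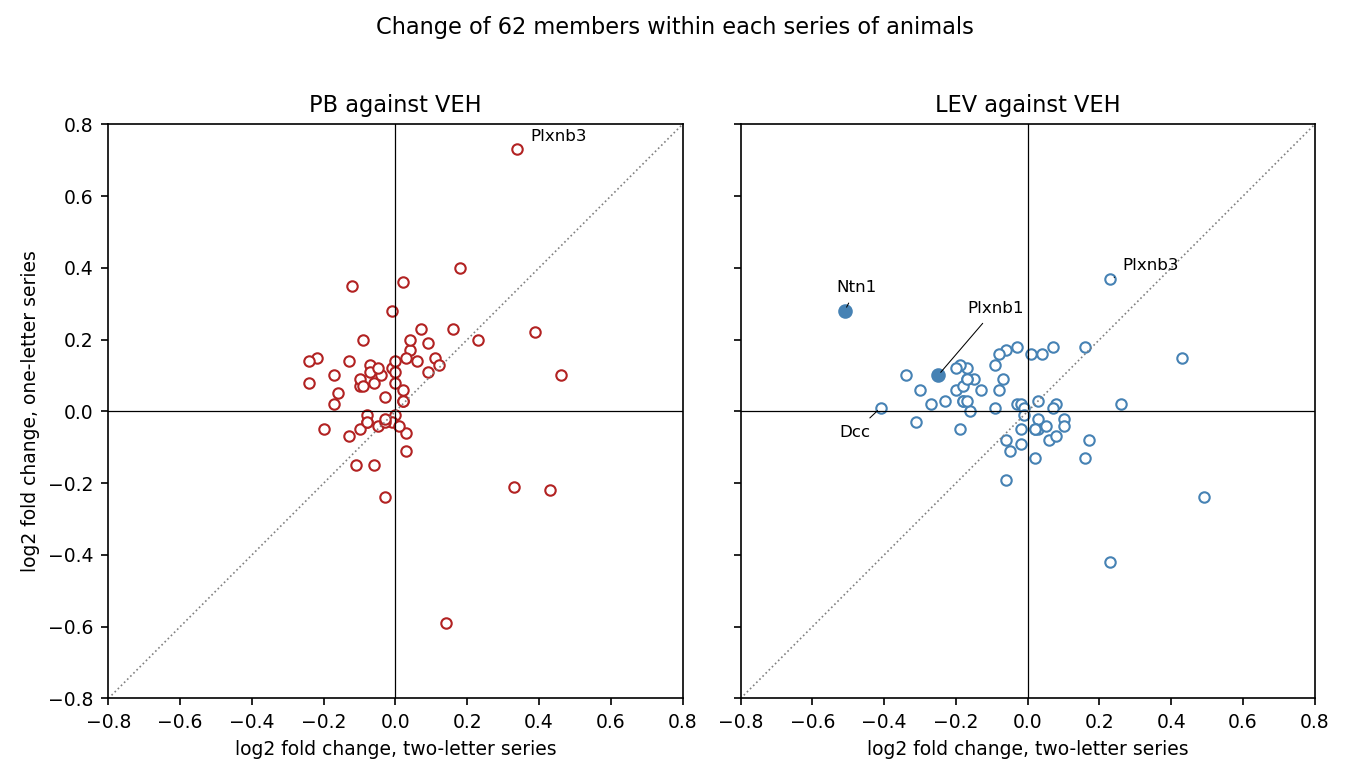
Log2 fold change of the 62 members after PB (left) and LEV (right) in the two-letter series (x axis) and the one-letter series (y axis), with the dotted line where both are equal. Filled points are members whose change differed between the series at an adjusted p under 0.05, which are Ntn1 (-0.51 and 0.28) and Plxnb1 (-0.25 and 0.10) after LEV. Plxnb3 lies above 0 on both axes in both panels.

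Of the 62 members, 19 had the same sign of change after LEV in both series (30.6%), beside 43.0% of all transcripts, and 35 had it after PB (56.5%), beside 56.5%. After PB, 4 members were higher at an unadjusted p under 0.05 in the two-letter series (6.45%), beside 4.61% of all transcripts, and 3 were lower (4.84%), beside 5.07%. In the one-letter series 13 were higher (21.0%), beside 10.3%, and 2 were lower (3.23%), beside 11.5%. Plxnb3 was the 1 member higher in both series. The median of the members after PB was -0.01 in the two-letter and 0.09 in the one-letter series, beside 0.01 and 0.00 over all transcripts.

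Other genes of guidance signalling were counted from lists of coreceptors and of cytoplasmic effectors. Of 26 tested transcripts of coreceptors and other guidance genes, 1 was higher after PB by adjusted p and 0 were lower (edgeR). This was Celsr3, an atypical cadherin needed for axon tracts, at 0.16 (SE 0.04, adjusted p = 0.0138). Of 66 tested transcripts of cytoplasmic effectors, 2 were higher and 2 lower. Trio and Farp1, both guanine nucleotide exchange factors, were higher by 0.14 (adjusted p = 0.0200) and 0.17 (adjusted p = 0.0432). Chn1, which encodes the Rac inhibitor chimaerin downstream of Epha4, and Cfl1, which encodes the actin-severing protein cofilin, fell by 0.23 (adjusted p = 0.0432) and 0.10 (adjusted p = 0.0316) on the log2 scale. In the two-letter and one-letter series these stood at 0.11 and 0.20 for Celsr3, 0.00 and 0.25 for Trio, 0.10 and 0.22 for Farp1, -0.11 and -0.32 for Chn1, and -0.03 and -0.16 for Cfl1. The share of all transcripts with an adjusted p under 0.05 was 5.39%, as above. After LEV, 0 of 26 and 0 of 66 had an adjusted p under 0.05 (edgeR). At an unadjusted p under 0.05, 1 coreceptor transcript was lower, and 2 effector transcripts were higher and 3 lower. Over all transcripts the shares were 2.96% higher and 2.89% lower.

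Markers of cell types that the dissected tissue can hold were set beside these results, and their part in the other members' values was not tested beyond the fits given. The choroid plexus list varied widely within each group, with summed counts from 144 to 53985 in VEH, 171 to 85379 in PB and 123 to 62076 in LEV animals. Its median log2 fold change was 0.62 after PB and 0.76 after LEV, with 0 of 11 transcripts called by adjusted or unadjusted p in edgeR after either drug. Within groups, 4 members rose with the choroid plexus level (6.45%), beside 5.40% of all transcripts, namely Plxnb2, Sema3f, Sema3b and Ntn4. The log2 slope per unit of mean log2 CPM of the list was 0.05 (SE 0.00856) for Plxnb2, 0.13 (SE 0.0251) for Sema3f and 0.07 (SE 0.0176) for Sema3b. Without the 2 animals with the list levels farthest from the median (VEH animal 11 and LEV animal 12), Ntn4 did not pass and the other 3 did. With the choroid plexus level in the model, the change after PB was 0.12 (adjusted p = 0.11) for Plxnb2, 0.25 (adjusted p = 0.102) for Sema3b and 0.53 (adjusted p = 0.00117) for Plxnb3.

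The mature oligodendrocyte list held 19 tested transcripts of 14 genes. Several were entries of Mbp, between which shared reads are divided, so Mbp weighs more in the list than the other genes. Summed counts ran from 10699 to 27384 in VEH, 7167 to 28327 in PB and 14024 to 27526 in LEV. The median log2 fold change of the list was -0.06 after PB and 0.42 after LEV. After PB, Opalin, a marker of mature oligodendrocytes, fell by 1.39 on the log2 scale (SE 0.41, adjusted p = 0.0339, edgeR). Its counts were low, with a median of 12.6 in VEH and 3.94 in PB. Opalin was the 1 transcript of the list that passed after PB, and 8 of 19 lay above 0 and 11 below. After LEV 0 of 19 passed the adjusted test, while 8 were higher at an unadjusted p under 0.05. Among 13 transcripts of oligodendrocyte precursors and committed precursors, Enpp6, a marker of newly forming oligodendrocytes, was higher by 0.66 after PB (SE 0.17, adjusted p = 0.0136), and the other 12 did not pass.

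Plxnb3 rose with the mature oligodendrocyte level within groups, with a log2 slope of 0.44 per unit of mean log2 CPM (SE 0.0655, adjusted p = 1.94e-05, edgeR). The slope was 0.50 in the two-letter and 0.39 in the one-letter series, and 0.38 (adjusted p = 0.00302) without PB animals 2 and 7, which lay farthest from the median. VEH animal 3, the highest VEH animal for Plxnb3, had the highest level of the list in that group (5.64). PB animal 2, the lowest PB animal for Plxnb3, had the lowest level of all (3.23). In all, 6 members had a slope with an adjusted p under 0.05 (9.68%), beside 5.22% of all transcripts. The other 5, Sema4g, Sema6c, Efna2, Plxna3 and Plxna2, were lower where the list was higher, with slopes from -0.19 to -0.13. Of these 5, Sema6c and Plxna3 also passed without PB animals 2 and 7.

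**Figure D5:**
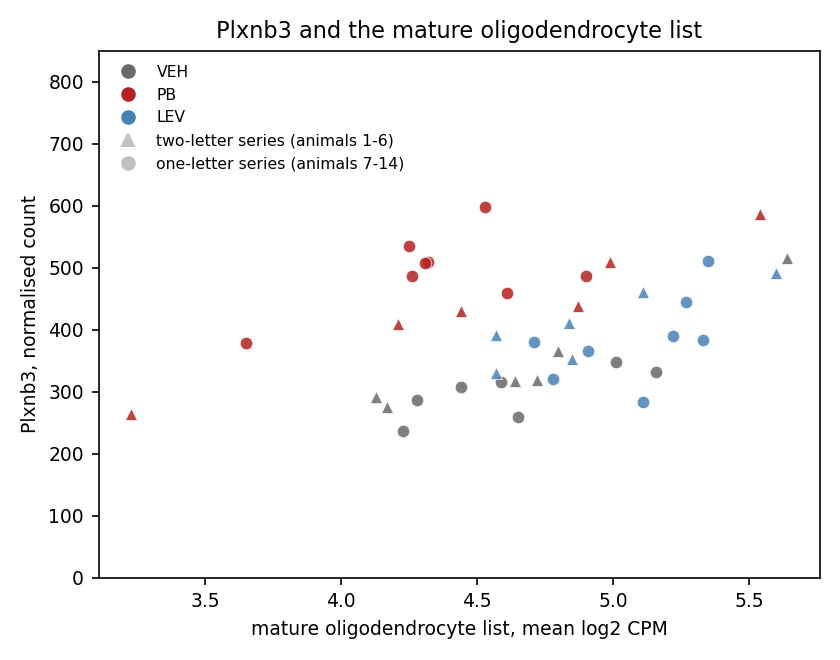
Normalised count of Plxnb3 (y axis) against the mean log2 CPM of the mature oligodendrocyte list (x axis) in each animal, coloured by treatment, with triangles for the two-letter and circles for the one-letter series. PB animals lie above VEH animals at like levels of the list, and PB animal 2 (3.23 and 265) and VEH animal 3 (5.64 and 515) lie at the ends of their groups on both axes.

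With the mature oligodendrocyte level in the model, the change of Plxnb3 was 0.65 after PB (SE 0.07, adjusted p = 2.73e-07) and 0.15 after LEV (SE 0.07, adjusted p = 0.661). With that level in the model, the difference between PB and LEV passed the test for Plxnb3 and for no other member. Without it, the difference did not pass. The mature oligodendrocyte level was itself lower after PB than after LEV (mean 4.44 against 5.02), and Plxnb3 rose with it. This fit therefore does not compare the drugs at their observed levels. With the level of the precursor list in the model, the change after PB was 0.44 (SE 0.10, adjusted p = 0.00981). The precursor level was itself higher after PB than after VEH (mean 5.8 against 5.68), and the mature level was lower (4.44 against 4.65). Neither fit therefore compares PB with VEH at their observed levels. The part of oligodendrocyte number or stage in the values of Plxnb3 was not tested beyond these fits. The 4 tested transcripts of skeletal muscle genes had summed counts from 129 to 411 in VEH, 116 to 191 in PB and 122 to 496 in LEV, and 3 of them were lower after PB by adjusted p. Their mean log2 CPM in the two-letter series was 2.42 to 2.97 in VEH, 2.02 to 3.23 in LEV and 0.55 to 1.02 in PB animals, and in the one-letter series it was at most 1.23. Atp2a1, which encodes the calcium pump of fast muscle, was at -4.06 after PB in the two-letter and 0.34 in the one-letter series. With that level in the model, Plxnb3 was at 0.66 (adjusted p = 0.00113).

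Markers of the remaining cell types were counted by adjusted p after PB. Of 11 interneuron transcripts 3 were lower (Sst, Slc32a1 and Pvalb), of 11 transcripts of excitatory and granule neurons 2 were lower (both entries of 1 Fibcd1 accession), of 19 astrocyte transcripts 1 was higher (Gfap) and 3 lower, and of 10 microglia transcripts 1 was higher (Cd68). The counts were 0 of 9 for endothelium (3 lower at an unadjusted p under 0.05), 0 of 6 for red blood cells (0 at an unadjusted p) and 0 of 7 for ependyma (1 higher at an unadjusted p), all by edgeR. After LEV, no transcript of any marker list passed the adjusted test.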

How the data were processed

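Hippocampal RNA libraries were prepared with the NEBNext Ultra kit. Reads were trimmed, aligned with STAR 2.7.3a to the rn6 genome, and summarised by the authors, who deposited estimated counts per RefSeq transcript from the Partek E/M algorithm, before normalisation. Of the deposited values, 13.7% were not whole, since reads shared between transcripts are divided. Strand use is not given in the sources used here, and 3 members (Epha1, Sema6c and 1 Robo4 transcript) overlap another gene. A second deposited table holds the authors' own DESeq2 comparisons (p values, fold changes and group means) and was not used.

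The expected counts were rounded to whole numbers. The tests used edgeR 4.0.16 (with limma 3.58.1, under R 4.3.3), with TMM, filterByExpr by treatment, an additive series term, glmQLFit and glmQLFTest over all 13062 tested transcripts with Benjamini-Hochberg adjustment, in 1 fit of 41 animals. Normalised counts are scaled to an effective library of 11405252. SE is the log2 fold change divided by the square root of F. Marker levels are means of log2 CPM with a prior count of 2. The study subtracted batch and batch-by-treatment effects before DESeq2, which was run as an alternative with DESeq2 1.42.0. The fit after that subtraction held treatment alone and did not count the removed terms. The script for the tests was tested on simulated data.

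The members and gene lists were chosen with earlier results of these data known. Named genes were those with an adjusted p under 0.05 in a contrast or in the test of treatment by series, the 5 with the smallest unadjusted p in each contrast, the highest VEH count in each class (a rule for naming, not a comparison of levels between genes), and those that did not pass the filter. Other genes were named where a count of 5 or fewer or a receptor pair asked for it, and these were chosen after their values were seen. Animal numbers are shared between groups. Deviations from the group means of same-numbered animals correlated between -0.332 and 0.329 over 40 pairs, with 10 pairs over 0.1. Whether equal numbers mark a shared litter is not given in the sources used here, and these correlations cannot decide it. The main fit did not pair the animals. Within groups no pair of libraries was a duplicate (chi-square per degree of freedom at least 4.03 in all 260 pairs), and pairs between groups were not compared.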

Additional observations from a re-analysis of the deposited data

Results flagged for a closer look

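Plxnb1 and Ntn1 stood out because their change after LEV against VEH differed between the two-letter and one-letter series by the edgeR test of the difference, with adjusted p = 0.0149 for Plxnb1 and adjusted p = 0.0289 for Ntn1. The joint test over both drugs gave adjusted p = 0.0531 for Plxnb1 and adjusted p = 0.086 for Ntn1. What the series differ in is not given in the sources used here, and the cause was not tested.

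The VEH animal that its label excludes (animal 7) entered no comparison. In it, 27 of 62 members lay above the highest of the other 13 VEH animals and 5 below the lowest, while 4153 of all 13062 tested transcripts lay above and 4161 below. Plxnb3 was at 695 in this animal, against 235 to 514 in the others under the same normalisation.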

How the results depend on the processing

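The log2 fold change of Plxnb3 after PB stayed above 0 and past the adjusted p in every alternative but 1, between 0.44 (excluded VEH animal included, adjusted p = 0.0323) and 0.73 (one-letter series alone), and in the two-letter series alone it was 0.34 (adjusted p = 0.406). Among the values of named members under the alternatives, 271 kept direction and side of the threshold, 26 passed where they had not and 1 was lost (that of Plxnb3). Dcc and Robo1 after LEV changed sign in the one-letter series alone, to 0.01 and 0.06. The cause was not tested.

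Counts of members called by adjusted p and fold were as follows. For these counts and those by adjusted p alone, the shares over all transcripts under each alternative are not given here. A count that moved is therefore not shown to be particular to the members. PB against VEH gave 1, but 0 in the two-letter and 3 in the one-letter series alone (Plxnb3, Sema3d and Sema5b). LEV against VEH gave 0, but 2 in the two-letter series alone (Dcc and Ntn1). PB against LEV gave 0, but 1 without the filter (Robo4), 1 in the two-letter series alone (Dcc) and 1 with the mature oligodendrocyte level as covariate (Plxnb3).

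By adjusted p alone, PB against VEH gave 1, but 5 after subtracting batch and batch-by-treatment effects before DESeq2 (Plxnb3, Plxnb2, Sema4c, Sema4d and Sema6a), 4 in the one-letter series alone, 0 in the two-letter series alone, 2 with treatment-by-series terms, 2 with only the groups compared, and 2 with the mature oligodendrocyte level. With covariates chosen after seeing the data it gave 3 with the precursor level and 4 with the muscle level. Leaving out 1 animal gave 1 to 4, with 4 without PB animal 5. LEV against VEH gave 0, but 4 in the two-letter series alone (Dcc, Ntn1, Plxnb1 and Robo1). PB against LEV gave 0, but 4 with DESeq2, 7 with the subtraction and DESeq2, 3 with the precursor level, and 1 each without the filter, with treatment-by-series terms, in the two-letter series alone, in the one-letter series alone, and with the choroid plexus, mature oligodendrocyte or muscle level. Leaving out 1 animal gave 0 to 3, with 3 without PB animal 5. The test of treatment by series gave 0, and 0 to 2 when 1 animal was left out, with 2 without VEH animal 13, LEV animal 1 or LEV animal 8.

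With the animal number as replicate block, PB against VEH gave 1 member (Plxnb3, 0.57), and the block changed no other call. Without scaling, members above 0 numbered 44 of 62 after PB and 31 after LEV, a scaling chosen after seeing the data. The median log2 fold change over all tested transcripts was then 0.03 after PB and 0.01 after LEV. The transcript counts limit Ntn5, Epha1 and Robo4, which were not detectable above the filter at this depth.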
